A study of Solanum lycopersicum with 8 samples.

Results

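Plants that are chewed by insects make proteins that spoil the meal: inhibitors of digestive proteinases, oxidases that damage dietary protein, and enzymes that destroy essential amino acids in the insect gut. Genes of this kind were chosen from a table of tomato leaf transcripts by their descriptions. A gene was a member if its description held proteinase inhibitor, protease inhibitor, trypsin inhibitor, miraculin, polyphenol oxidase, threonine deaminase or dehydratase, leucine aminopeptidase, or arginase, and each symbol was represented by its transcript with the most reads. That gave 59 genes of 28900 symbols, from 65 matching transcripts of 45845. They were 26 serine proteinase inhibitors, 11 Kunitz-type inhibitors and miraculins, 6 cysteine proteinase inhibitors, 7 polyphenol oxidases, 3 threonine deaminases, 4 leucine aminopeptidases and 2 arginases.

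The leaves came from Solanum lycopersicum and fell into 4 groups of 2 biological replicates each: tunicamycin at 2 h, control at 2 h, tunicamycin at 6 h and control at 6 h. Tunicamycin blocks N-linked glycosylation and so loads the endoplasmic reticulum (ER) with unfolded protein; the series describes its purpose as profiling ER stress at both times. Dose, mode of application, cultivar, plant age and the composition of the control treatment are given by none of the labels used here. Total RNA was sequenced as 8 libraries of 4689769 to 122784850 counts. In each group 1 library was between 5.49 and 9.98 times as deep as the other; the deeper one was replicate 1 in tunicamycin and replicate 2 in control leaves, so values within the deeper and within the shallower libraries are given beside the main ones. Levels are CPM, counts relative to the library total, scaled by TMM, a normalisation that lets libraries be compared; transcript lengths were not used, so no level is compared between genes. Ribosomal RNA took 2.54% of counts in tunicamycin 6 h replicate 2 and 0.0844% to 0.656% in the other libraries. Leaf mesophyll markers, 22 genes for chlorophyll-binding proteins and the small Rubisco subunit, summed to 35220 and 41240 CPM in tunicamycin 2 h, against 32050 and 28420 CPM in control 2 h, and overlapped at 6 h (21770 and 46410 CPM in tunicamycin leaves, against 28130 and 36750 CPM in control leaves). Glandular trichome markers, with 10 of 37 genes at 0 counts throughout, summed to 39.2 and 37.6 CPM in tunicamycin 2 h, against 42.3 and 47.8 CPM in control 2 h, and to 37.2 and 46.0 CPM in tunicamycin 6 h, against 33.2 and 33.3 CPM in control 6 h. The 3 xylem markers summed to 2.18 and 2.25 CPM in tunicamycin 2 h, against 4.88 and 8.66 CPM in control 2 h, and overlapped at 6 h. So at 2 h mesophyll markers were higher and trichome and xylem markers lower in both tunicamycin libraries, and at 6 h trichome markers were higher; phloem, epidermis and dividing-cell markers overlapped between the arms at both times.

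In tomato, wounding releases the peptide systemin, which triggers jasmonate synthesis in the chloroplast and peroxisome. The jasmonate-isoleucine conjugate binds the receptor COI1, JAZ repressors are degraded, and the transcription factor MYC2 switches on the late defence genes, among them proteinase inhibitors I and II, polyphenol oxidase F, threonine deaminase 2, arginase 2 and the acidic leucine aminopeptidases. Several of these gene families stand in tandem. By gene order in the RefSeq assembly SLM_r2.1, in which 54 members were found by symbol, 42 lay in 7 clusters with no more than 3 other protein-coding genes between neighbours, and 12 stood alone. A cluster of 13 held inhibitor I genes, another of 13 held Kunitz-type, cysteine and type II inhibitors together with Lemir, and a cluster of 6 held polyphenol oxidases. Reads shared between such near copies could have been split between them, so the values of single family members are uncertain to that degree.

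Of the 59 genes, 42 had enough counts to test. The other 17 held 60 counts or fewer over all libraries, and 7 of them had 0 counts in all 8, including polyphenol oxidase A and 2 miraculin-like genes. A count of 0 allows a level of up to 3 counts, which is 0.0237 CPM in the deepest and 0.610 CPM in the shallowest library, for counting error only. These limits may be too low, since 77.8% of values from 1 to 20 counts were even and counts may not be independent fragments. TD2, the threonine deaminase that in tomato accumulates after herbivory, had 12 counts in all. Since the filter keeps a gene that is high in just 1 group, counts over the 42 tested genes do not stand for all 59.

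In leaves treated with tunicamycin for 2 h, no wound defence gene was called different from control leaves. The test was edgeR's quasi-likelihood test with Benjamini-Hochberg adjustment over 34483 transcripts, and a gene was called at an adjusted p under 0.05. It called 0 of 42 members, against 0.0464% of all transcripts tested. At an unadjusted p under 0.05 there were 10 members, 6 higher and 4 lower in tunicamycin leaves, against 7.25% of all transcripts. DESeq2 called 3 members (Lemir, PPO and LOC101259064) and limma-voom 0. The share of 0.0464% is edgeR's, and calls over all transcripts at 2 h ran from 0 to 679 over the 17 alternatives. The 3 members are therefore not read as more than the transcripts at large. The median log2 fold change of the tested members was 0.46, beside 0.03 over all transcripts. That median rests on 2 unlike tunicamycin libraries. Replicate 1 was above replicate 2 in 35 of the 42 members, with a median log2 difference of 1.35, beside 0.10 over all transcripts. Both tunicamycin libraries lay above both control libraries in 6 members (19.0% of all transcripts) and below them in 6 (18.8%).

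At 6 h the test also called 0 of 42 members, against 0.322% of all transcripts, and DESeq2 and limma-voom called 0 as well. There were 2 members at an unadjusted p under 0.05, both lower in tunicamycin leaves, against 4.07% of transcripts. The median log2 fold change was -0.11 for the members and 0.03 for all transcripts. Tunicamycin libraries lay above control libraries in 2 members (13.0% of transcripts) and below in 7 (12.5%). Averaged over both times, edgeR again called 0 (1.16% of transcripts), with 3 higher and 4 lower at an unadjusted p under 0.05 (7.91%). For that average DESeq2 called 3 members (LOC101248784, LOC101259064 and PPO) and limma-voom called 1, LOC101248784. The share of 1.16% is edgeR's, and calls over all transcripts ran from 63 to 1175 over the 16 alternatives to the average. In bulk leaf RNA, fewer cells of a type and less RNA per cell cannot be told apart, and the part of the marker levels given above was not tested.

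**Figure D1:**
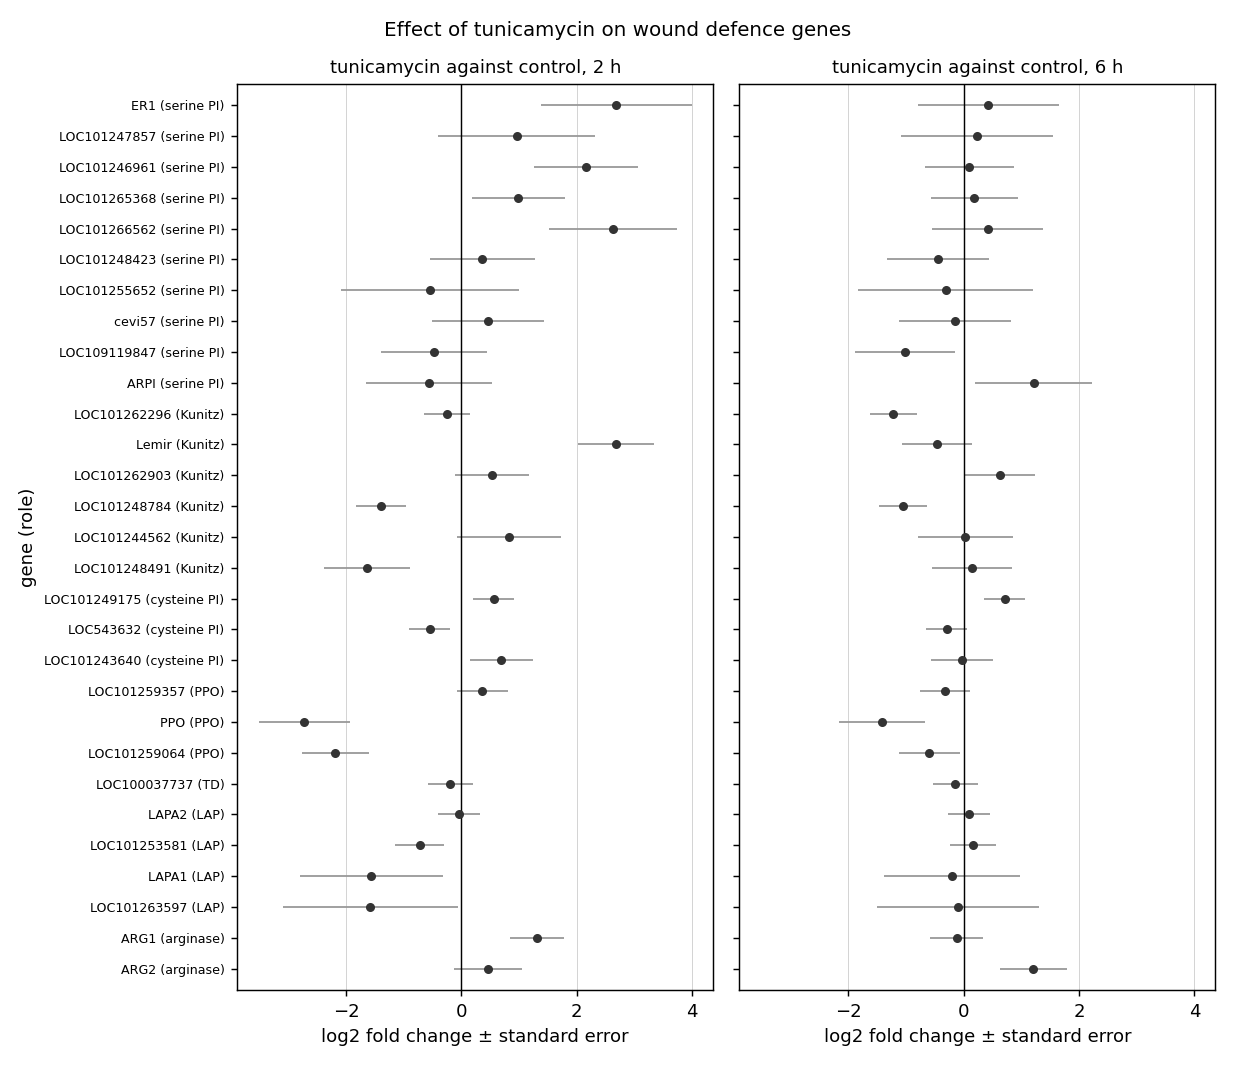
Log2 fold change of tunicamycin against control leaves (x axis) for the 29 tested wound defence genes with a mean of at least 1 CPM (y axis), at 2 h on the left and 6 h on the right. Points are fitted values and bars are standard errors; Lemir stands at 2.68 at 2 h and PPO at -2.73, and at 6 h PPO stands at -1.42.

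Serine proteinase inhibitors of families I and II bind chymotrypsin and trypsin in the insect gut and are the classic wound-induced proteins of tomato leaves. ER1, a proteinase inhibitor I, had 582 and 53.5 CPM in the 2 libraries of tunicamycin 2 h, against 43.5 and 55.2 CPM in control 2 h. It had 191 and 74.5 CPM in tunicamycin 6 h, against 27.5 and 169 CPM in control 6 h. So 1 tunicamycin library at 2 h stood apart while the other lay between the control libraries, and at 6 h the groups overlapped.

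The same library stood apart across the family. In tunicamycin 2 h replicate 1, all 10 tested inhibitor I genes were above both control libraries of that time. In replicate 2 of the same group 2 of the 10 were above both and 5 were below both. Over all transcripts tested, 38.6% were above both and 34.2% below both in replicate 1, and 35.0% and 36.9% in replicate 2. Depth limits this comparison: 8 of the 10 genes had 4 counts or fewer in tunicamycin 2 h replicate 2, and 7 of the 10 in control 2 h replicate 1, the other shallow library of that time. The other 13 inhibitor I genes together, without ER1, summed to 47.5 and 5.47 CPM in tunicamycin 2 h, against 8.54 and 15.6 CPM in control 2 h. At 6 h they summed to 24.7 and 47.7 CPM in tunicamycin leaves, against 38.3 and 24.8 CPM in control leaves. The replicates of tunicamycin 2 h were at least 4-fold apart in 7 of 10 inhibitor I genes and 4 of 5 inhibitor II genes. The same was true of 18 of all 42 tested members (42.9%) and of 3620 of 34483 transcripts (10.5%). Replicates were also apart elsewhere: by that measure 14 of 42 members (33.3%) in tunicamycin 6 h, against 5.81% of transcripts, 9 (21.4%) in control 2 h, against 7.995%, and 4 (9.52%) in control 6 h, against 4.77%. In tunicamycin 6 h these included 4 of 10 inhibitor I and 3 of 5 inhibitor II genes. The median log2 fold change of the 10 inhibitor I genes at 2 h, 1.58, sits beside 1 library with all 10 above control and 1 with 2.

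The individual inhibitor I and II genes showed how far apart these replicates were. LOC101247857, a wound-induced inhibitor 1-like gene, had 24.3 and 0.322 CPM in tunicamycin 2 h, against 2.85 and 9.63 CPM in control 2 h. LOC101255652, wound-induced inhibitor 2, had 33.7 and 0.322 CPM in tunicamycin 2 h, against 37.0 and 16.1 CPM in control 2 h. The value of 0.322 CPM stands for 2 counts in each gene, and in both genes the other 7 libraries were above it.

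At 6 h those genes overlapped between the arms. LOC101247857 had 18.3 and 33.6 CPM in tunicamycin leaves, against 28.0 and 15.9 CPM in control leaves. LOC101255652 had 13.8 and 50.5 CPM in tunicamycin leaves, against 42.3 and 37.0 CPM in control leaves. cevi57, a proteinase inhibitor II, had 35.3 and 8.36 CPM in tunicamycin 2 h, against 10.4 and 21.3 CPM in control 2 h. At 6 h its libraries held 11.3 and 1.91 CPM in tunicamycin leaves, against 11.5 and 3.88 CPM in control leaves. None of the 3 genes separated the arms at either time.

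**Figure D2:**
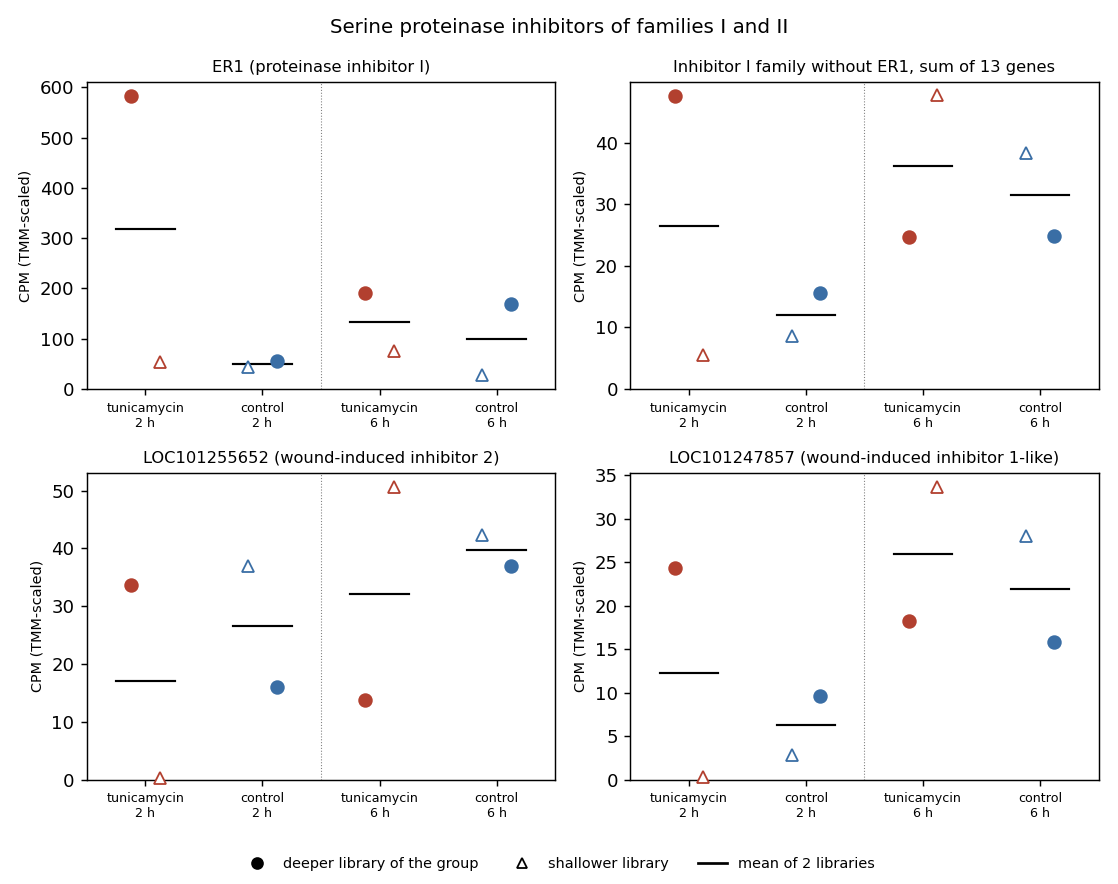
Level in CPM (y axis) in each library of the 4 groups (x axis) for ER1, the sum of the other 13 inhibitor I genes, LOC101255652 and LOC101247857. Filled circles are the deeper and open triangles the shallower library of a group, and lines are means of 2; in tunicamycin 2 h the deeper library of ER1 is at 582 CPM and the shallower at 53.5 CPM.

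Among the rarer serine proteinase inhibitors, LOC101266528 (PSI-1.2, of the type II family) separated the arms at 2 h. It had 2.86 and 1.93 CPM in tunicamycin 2 h, from 130 and 12 counts, against 0 and 0.169 CPM in control 2 h, from 0 and 8 counts (log2 4.16 ± 1.44, adjusted p = 0.496 in edgeR). At 6 h it had 0.950 and 0 CPM in tunicamycin leaves, against 1.01 and 0.229 CPM in control leaves. It was thus lower at 6 h than at 2 h in both tunicamycin libraries. The control values were higher at 6 h, but that rise cannot be read. The 0 counts in control 2 h replicate 1, the shallowest library, allow up to 0.610 CPM, above the 0.229 CPM of control 6 h replicate 2. The difference of the tunicamycin effect between times (log2 -4.27 ± 1.84) did not pass the test (adjusted p = 1 in edgeR). LOC101246961 and LOC543954, both described as wound-induced inhibitor 1, had log2 fold changes of 2.16 ± 0.89 and 3.18 ± 1.34 at 2 h (adjusted p = 0.63 and 0.635 in edgeR). Their tunicamycin libraries overlapped the control ones, with 5.32 and 0.322 CPM for LOC101246961 in tunicamycin leaves, against 0.814 and 0.634 CPM in control leaves. Without tunicamycin 2 h replicate 1 the log2 fold change of LOC101246961 became -1.11, and LOC543954 had 0 counts in the tunicamycin library that was left.

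Kunitz-type inhibitors block trypsin-like and other proteinases, and the miraculin subfamily is related to the taste-modifying protein of miracle fruit. Lemir, a tomato miraculin first known from nematode-infected roots, gave the smallest p of the members at 2 h. It had 45.8 and 13.8 CPM in tunicamycin 2 h, against 4.88 and 4.60 CPM in control 2 h. At 6 h the values were 6.48 and 2.05 CPM in tunicamycin leaves, against 3.82 and 8.19 CPM in control leaves. Both tunicamycin libraries were well above control at 2 h, and the groups overlapped at 6 h.

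The log2 fold change of Lemir at 2 h was 2.68 ± 0.66 (adjusted p = 0.265 in edgeR), at 3.30 from the deeper pair of libraries and 1.49 from the shallower pair. Over the 17 alternatives its adjusted p ran from 7.94e-07 to 0.923 and was under 0.05 in 4, DESeq2 among them. Within tunicamycin leaves, 6 h against 2 h gave -2.77 ± 0.64 (adjusted p = 0.103), at -2.81 from the deeper and -2.73 from the shallower pair. That comparison shares the tunicamycin 2 h libraries with the one at 2 h. The tunicamycin effect at 6 h minus that at 2 h was -3.14 ± 0.89, the smallest p of the members for that difference (adjusted p = 1 in edgeR).

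LOC101248784, a Kunitz trypsin inhibitor 2-like gene, lay below control in all 4 tunicamycin libraries. It had 6.77 and 3.86 CPM in tunicamycin 2 h, against 12.6 and 16.0 CPM in control 2 h, and 3.73 and 5.60 CPM in tunicamycin 6 h, against 11.5 and 7.62 CPM in control 6 h. Every tunicamycin library was below every control library. Only 1 other member, PPO, had that order (2.83% of all transcripts). Averaged over both times its log2 fold change was -1.22 ± 0.30 (adjusted p = 0.0748 in edgeR), the smallest p of all members for that average. It was -1.39 ± 0.43 at 2 h and -1.04 ± 0.42 at 6 h, and lay between -1.70 and -1.02 within the deeper and the shallower libraries of each time. The adjusted p of the average ran from 0.00522 to 0.411 over 16 alternatives and was under 0.05 in 4 of them.

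LOC101262296, annotated as Kunitz trypsin inhibitor 2, had 243 and 153 CPM in tunicamycin 2 h, against 238 and 232 CPM in control 2 h. By 6 h the levels were 135 and 78.6 CPM in tunicamycin leaves, against 271 and 225 CPM in control leaves. The arms overlapped at 2 h and stood apart at 6 h, where the log2 fold change of -1.21 ± 0.40 gave the smallest p of the members (adjusted p = 0.503 in edgeR). Within the deeper libraries it was -0.74 and within the shallower ones -1.78. LOC101248491, another Kunitz trypsin inhibitor 2 and a close neighbour of LOC101248784, had 1.32 and 0.643 CPM in tunicamycin 2 h, against 2.85 and 3.61 CPM in control 2 h. Its 6 h levels were 2.14 and 0.683 CPM in tunicamycin leaves, against 1.31 and 1.34 CPM in control leaves, so its arms were apart at 2 h and overlapped at 6 h. LOC101262903, an aspartic protease inhibitor of this family, had 11.4 and 4.50 CPM in tunicamycin 2 h, against 4.88 and 6.29 CPM in control 2 h.

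Cysteine proteinase inhibitors, cystatins among them, block papain-like proteinases, which beetles use for digestion and plants use in senescence. Genes were put in this group by description, so not every member need be a cystatin. LOC101249175, cysteine proteinase inhibitor 5, was the 1 member whose 4 tunicamycin libraries all lay above its 4 control libraries (1.31% of all transcripts). It had 113 and 130 CPM in tunicamycin 2 h, against 88.1 and 76.8 CPM in control 2 h. At 6 h it had 94.4 and 156 CPM in tunicamycin leaves, against 84.1 and 68.6 CPM in control leaves. The size was small: averaged over both times the log2 fold change was 0.64 ± 0.25 (adjusted p = 0.461 in edgeR).

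The other members of this group did not separate the arms at 2 h. LOC543632, cysteine proteinase inhibitor A, had 31.8 and 29.9 CPM in tunicamycin 2 h, against 60.0 and 31.4 CPM in control 2 h. By 6 h it had 17.5 and 27.0 CPM in tunicamycin leaves, against 29.7 and 24.5 CPM in control leaves. LOC101261697, cysteine protease inhibitor 10, stood in the cluster that held Kunitz-type genes and Lemir, and its protein family was not examined. It was at 0 counts in both control 2 h libraries and at 14 and 0 counts in tunicamycin 2 h. The 6 h libraries held 12 and 0 counts in tunicamycin leaves, against 6 and 38 counts in control leaves. Its level was therefore too near 0 for a fold change to be read.

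Polyphenol oxidases are chloroplast enzymes that meet their phenolic substrates when cells are crushed; the quinones they form bind protein in the insect gut. Of the 7 genes, 3 were tested, all from 1 cluster. In 2 of these both tunicamycin libraries lay below both control libraries at 2 h (18.8% of all transcripts), as did the trichome and xylem marker sums, whose part was not tested, and neither gene was called by edgeR. PPO (polyphenol oxidase D) had 3.96 and 0.965 CPM in tunicamycin 2 h, against 6.71 and 28.6 CPM in control 2 h. At 6 h the values were 4.24 and 3.35 CPM in tunicamycin leaves, against 15.6 and 5.06 CPM in control leaves. The arms did not overlap at either time, but the control replicates were themselves far apart.

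The log2 fold change of PPO was -2.73 ± 0.79 at 2 h (adjusted p = 0.401 in edgeR), -1.42 ± 0.74 at 6 h (adjusted p = 1) and -2.07 ± 0.54 on average (adjusted p = 0.147). Within the deeper libraries it was -2.84 at 2 h and -0.25 at 6 h, and within the shallower ones -2.74 at 2 h and -2.21 at 6 h. With tunicamycin 2 h replicate 1 left out the value at 2 h was -4.24, and with control 2 h replicate 2 left out it was -1.35. At 6 h it was -0.40 once control 6 h replicate 1 was dropped. Over the 16 alternatives to the average, its adjusted p ran from 2.28e-08 to 0.621, and it was called in 3: without a filter on low counts, in DESeq2, and without control 2 h replicate 1.

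LOC101259064, polyphenol oxidase F, is of the kind induced by wounding in tomato leaves. It had 1.43 and 1.29 CPM in tunicamycin 2 h, against 4.07 and 8.07 CPM in control 2 h. At 6 h it had 2.80 and 5.33 CPM in tunicamycin leaves, against 7.75 and 4.38 CPM in control leaves. The arms stood apart at 2 h and overlapped at 6 h, with log2 fold changes of -2.18 ± 0.57 at 2 h (adjusted p = 0.271 in edgeR) and -1.39 ± 0.39 on average (adjusted p = 0.142). The value at 2 h was -2.46 within the deeper and -1.63 within the shallower libraries. The tunicamycin effect at 6 h minus that at 2 h was 1.59 ± 0.77 (adjusted p = 1). LOC101259357, polyphenol oxidase E, did not share that order: it had 15.8 and 6.11 CPM in tunicamycin 2 h, against 8.54 and 8.96 CPM in control 2 h, and its arms overlapped at both times.

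Arginase and threonine deaminase remove arginine and threonine, which leaf-eating larvae must take from the diet. ARG1 (arginase 1) had 27.9 and 26.7 CPM in tunicamycin 2 h, against 10.2 and 11.7 CPM in control 2 h. Its 6 h levels were 37.5 and 27.3 CPM in tunicamycin leaves, against 15.2 and 55.0 CPM in control leaves. The replicates were close together at 2 h, where ARG1 averaged 27.3 ± 0.827 CPM in tunicamycin and 10.9 ± 1.10 CPM in control leaves (SD, n = 2 each), and the arms overlapped at 6 h. The log2 fold change at 2 h was 1.31 ± 0.47 (adjusted p = 0.54 in edgeR), with 1.25 within the deeper and 1.39 within the shallower libraries. The tunicamycin effect on ARG1 at 6 h minus that at 2 h was -1.43 ± 0.65 (adjusted p = 1), and -0.22 without control 6 h replicate 2.

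ARG2, the arginase that jasmonate induces in tomato leaves and that stays active in the larval gut, had 9.87 and 4.82 CPM in tunicamycin 2 h, against 2.85 and 7.50 CPM in control 2 h. In the 6 h samples it had 6.66 and 18.6 CPM in tunicamycin leaves, against 3.67 and 6.99 CPM in control leaves (log2 1.21 ± 0.58, adjusted p = 1 in edgeR), and the libraries overlapped. That fold change was -0.07 within the deeper and 2.32 within the shallower libraries. LOC100037737, chloroplast threonine deaminase 1 of isoleucine synthesis, had 115 and 177 CPM in tunicamycin 2 h, against 131 and 202 CPM in control 2 h. By 6 h it had 237 and 225 CPM in tunicamycin leaves, against 299 and 212 CPM in control leaves. Its arms overlapped at both times, and in each arm both libraries of 6 h were above both of 2 h.

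**Figure D3:**
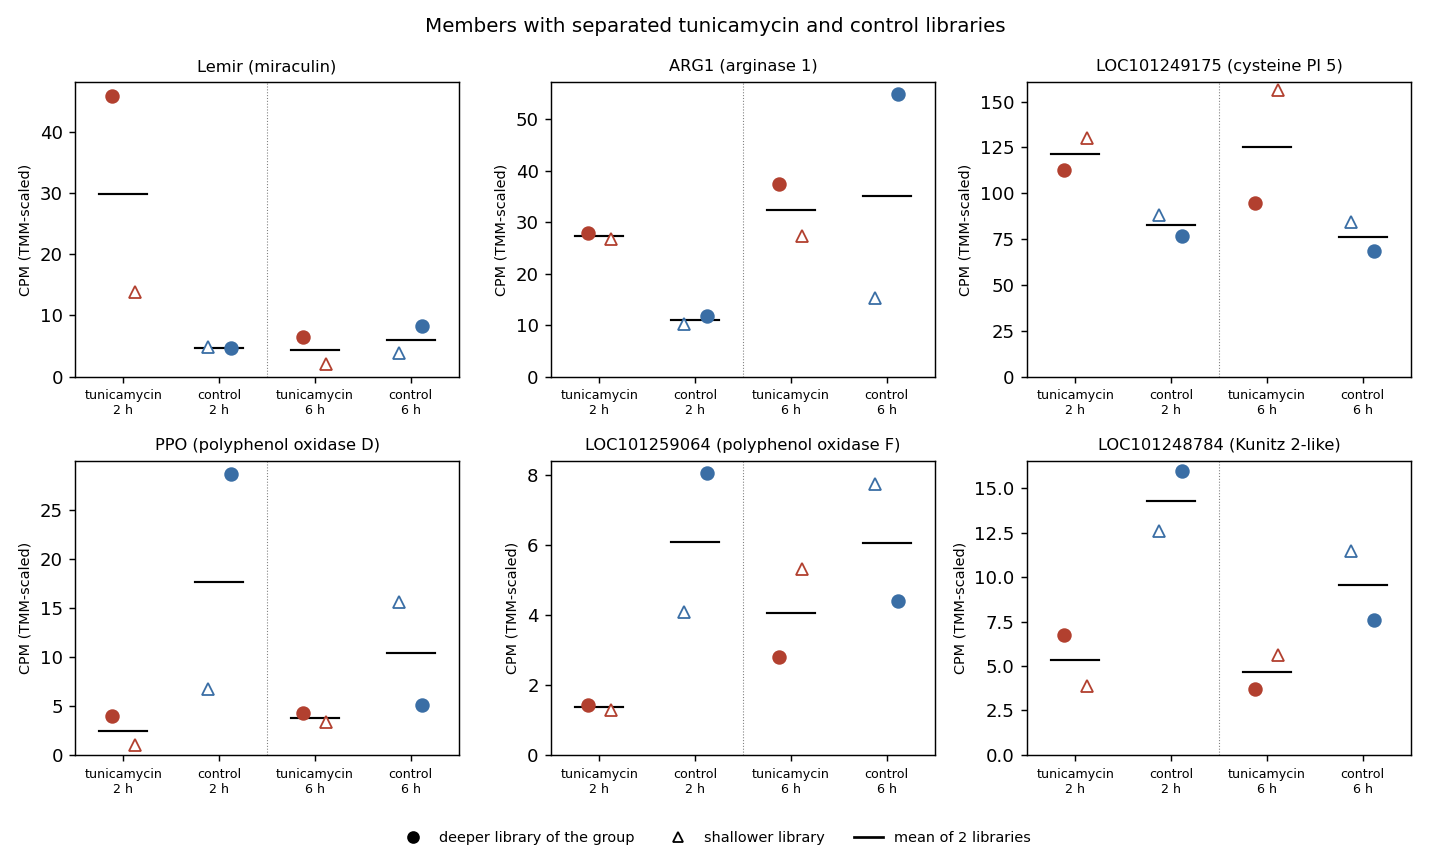
Level in CPM (y axis) in each library of the 4 groups (x axis) for Lemir, ARG1, LOC101249175, PPO, LOC101259064 and LOC101248784, with filled circles for the deeper and open triangles for the shallower library of a group and lines for means of 2. Lemir and ARG1 separate the arms at 2 h only, LOC101249175 is higher and PPO and LOC101248784 are lower in all 4 tunicamycin libraries, and LOC101259064 is lower at 2 h.

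Leucine aminopeptidases release N-terminal residues; the acidic forms of tomato accumulate after wounding and modulate late jasmonate responses. LAPA2 had 147 and 139 CPM in tunicamycin 2 h, against 150 and 146 CPM in control 2 h. At 6 h it had 174 and 199 CPM in tunicamycin leaves, against 135 and 214 CPM in control leaves, so its arms overlapped at 6 h. LAPA1, in the same cluster, had 1.01 and 1.93 CPM in tunicamycin 2 h, against 1.83 and 5.96 CPM in control 2 h. LOC101253581, a further leucine aminopeptidase, had 4.15 and 4.50 CPM in tunicamycin 2 h, against 6.92 and 7.29 CPM in control 2 h, and its arms were apart there. At 6 h the values were 7.40 and 10.5 CPM in tunicamycin leaves, against 9.76 and 6.14 CPM in control leaves. Within tunicamycin leaves 6 h against 2 h gave 1.04 ± 0.41 on the log2 scale (adjusted p = 0.366 in edgeR).

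By harvest time, too, edgeR called no member. Between 6 h and 2 h of control leaves, edgeR called 0 of 42 members (0.27% of transcripts), as did DESeq2 and limma-voom, and 3 had an unadjusted p under 0.05 (5.03%). In 15 members both control libraries of 6 h were above both of 2 h (17.1% of transcripts), and in 3 they were below (16.1%). ARG1 had the smallest p (log2 1.68 ± 0.47, adjusted p = 0.443), at 2.23 within the deeper and 0.58 within the shallower libraries. Between 6 h and 2 h of tunicamycin leaves edgeR called 0 (0.603% of transcripts), DESeq2 called 1 (Lemir) and limma-voom 0. The share of 0.603% is edgeR's, and calls over all transcripts ran from 65 to 1229 over the 17 alternatives. At an unadjusted p under 0.05 in edgeR, 3 members were higher and 3 lower (10.6% of transcripts).

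ARPI was described only as a proteinase inhibitor and was grouped here with the serine type. It had 27.7 and 9.29 CPM in tunicamycin 6 h, against 3.76 and 0 CPM in tunicamycin 2 h. In control leaves it had 12.3 and 3.95 CPM at 6 h, against 2.85 and 3.72 CPM at 2 h. It was higher at 6 h in every library of both arms, with a log2 fold change of 3.03 ± 1.10 in tunicamycin leaves (adjusted p = 0.378 in edgeR) and 2.14 ± 0.76 over both arms (adjusted p = 0.283). Over both arms edgeR called 0 members (1.42% of transcripts), as did DESeq2 and limma-voom, with 8 at an unadjusted p under 0.05 (13.3%). For the difference of the tunicamycin effect between times edgeR called 0 members and 0 transcripts (0.0%), DESeq2 and limma-voom called 0 members, and 4 members had an unadjusted p under 0.05 (2.21%), all 4 with the lower effect at 6 h.

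**Figure D4:**
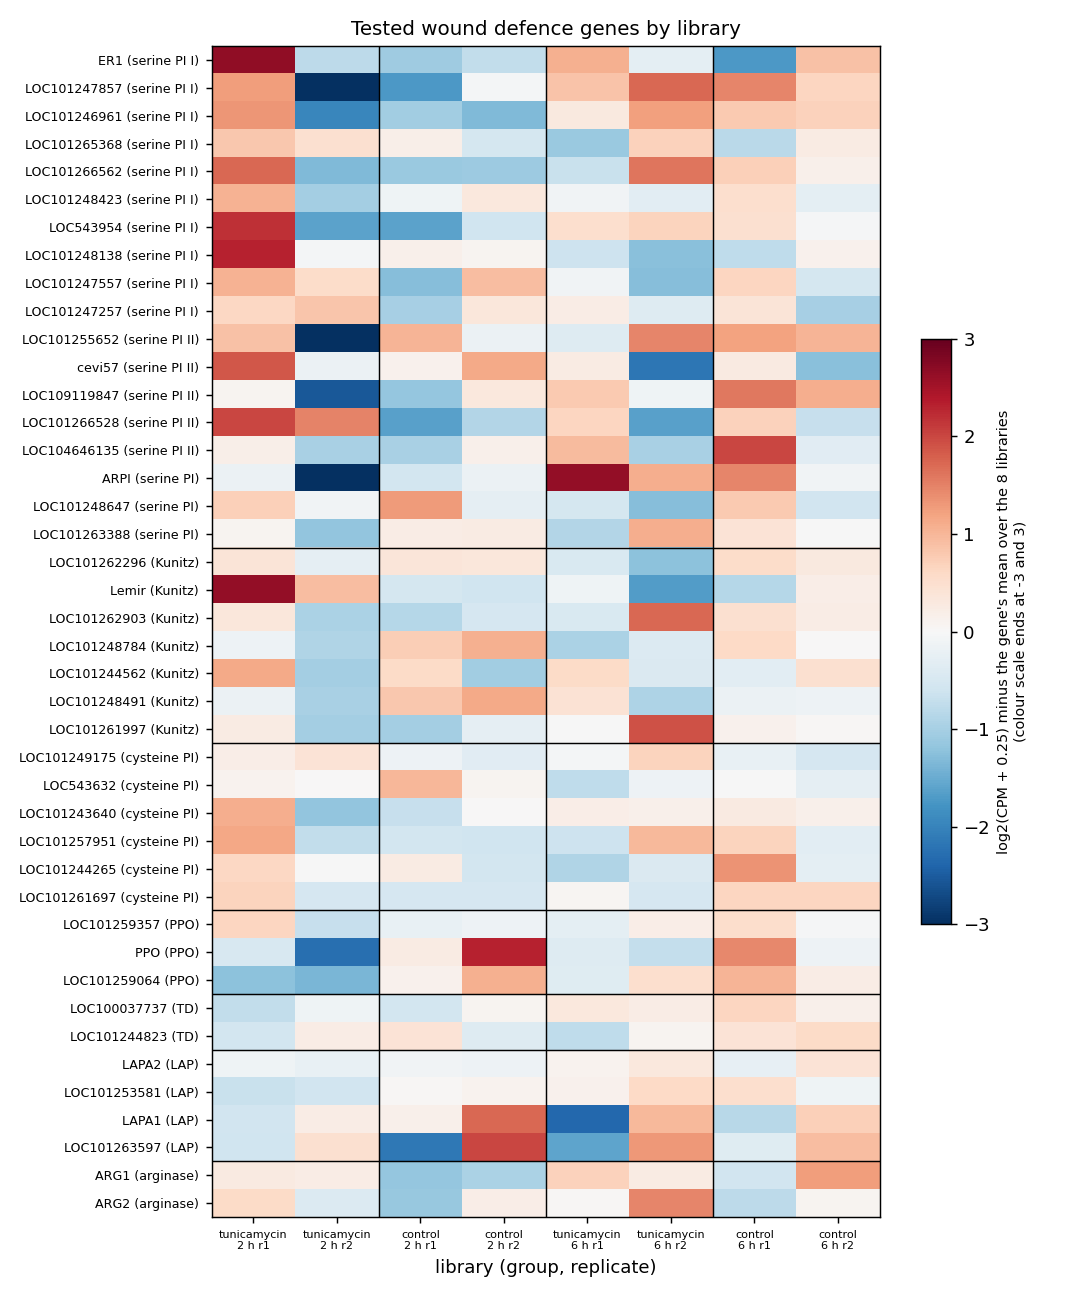
The 42 tested wound defence genes (y axis, grouped by role) in the 8 libraries (x axis), coloured by log2(CPM + 0.25) minus the gene's mean over the libraries. The column of tunicamycin 2 h replicate 1 is mostly red over the serine inhibitors and that of replicate 2 mostly blue; PPO and LOC101248784 are blue or pale in tunicamycin columns and red or pale in control columns.

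Genes that act upstream of these proteins were counted in the same fit. Of 36 genes whose descriptions matched jasmonate synthesis enzymes, 27 were tested. These included genes named linoleate 9S-lipoxygenase and OPR1, so counts and medians of this list do not stand for jasmonate synthesis alone. Averaged over both times 3 fell in tunicamycin leaves while none rose, against 1.06% of all transcripts called lower and 0.0957% called higher. They were aos, the allene oxide synthase at the head of the pathway (log2 -3.87 ± 0.30, adjusted p = 9.3e-05), AOC, the allene oxide cyclase after it (-1.75 ± 0.30, adjusted p = 0.00858), and loxD, a lipoxygenase that feeds it (-2.33 ± 0.28, adjusted p = 0.000874). The median of the 27 was -0.12, beside 0.03 for all transcripts. Taken singly, edgeR called 2 of the 27 lower at 2 h (aos and AOC, 0.0435% of transcripts) and 2 at 6 h (aos and loxD, 0.302%). Calls over all transcripts went down to 0 over the alternatives at each of these times. The calls at single times thus did not hold in every alternative. The level of aos was 1.67 and 3.22 CPM in tunicamycin 2 h, against 38.2 and 58.4 CPM in control 2 h. At 6 h it was 2.19 and 2.46 CPM in tunicamycin leaves, against 28.0 and 17.5 CPM in control leaves, with no overlap at either time.

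Of 36 genes for JAZ repressors, MYC2-type factors and their partners, 20 were tested. Averaged over both times 6 fell (1.06% of transcripts) and none rose, among them JAZ2 (-2.77 ± 0.27, adjusted p = 0.000508) and SLJAZ3 (-2.39 ± 0.29, adjusted p = 0.00103), and the median of the 20 was -0.32. MYC2 itself (-0.75 ± 0.27, adjusted p = 0.372) and the receptor gene Coi1 (-0.01 ± 0.29, adjusted p = 0.999) were not called. A further list was matched on wound peptides, their partners and wound-induced proteins, and 16 of its 19 genes were tested. It took in genes named wound-induced protein 1 and WIN1, so its counts and median do not stand for wound peptide signalling alone. In this list 1 member rose (0.0957% of transcripts) and none fell, with a median of 0.01. That member, LOC101260261 (log2 3.36 ± 0.39, adjusted p = 0.000803), is described as wound-induced protein 1 and not as a peptide or receptor. The systemin gene LOC543989 had 16.9 and 5.47 CPM in tunicamycin 2 h, against 2.03 and 5.28 CPM in control 2 h. At 6 h it had 11.5 and 7.92 CPM in tunicamycin leaves, against 4.68 and 11.6 CPM in control leaves. LOC543989 was not called at 2 h (log2 1.54 ± 0.60, adjusted p = 0.608 in edgeR) or averaged over both times (0.90 ± 0.41, adjusted p = 0.622). Of 89 tested genes of 141 for other herbivore defences, 70 of the 89 being named lectin, 6 fell (1.06% of transcripts) and none rose, with a median of -0.28. ADC (arginine decarboxylase) was among the 6. The others, LOC101247920, LOC101247768, LOC101267468, LOC101251977 and LOC101268703, are all described as lectins or lectin receptor kinases. Counts and median of this list therefore do not stand for herbivore defence alone. All these p-values are edgeR's, and the lists were matched on descriptions.

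In the authors' deposited table for 2 h, 5 members had a false discovery rate under 0.05, against 1.78% of its transcripts. In the authors' deposited table Lemir, ARG1 and LOC101266528 were higher, at log2 2.70, 1.31 and 4.14, and PPO and LOC101259064 were lower, at -2.69 and -2.17. The authors' deposited table for 6 h had 0 members under that rate (0.27% of transcripts), and the authors' deposited table of tunicamycin 6 h against 2 h had 1, Lemir, lower at -2.79 (2.49% of transcripts). The test that made those tables is not named.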

How the data were processed

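Whole-number read counts for 45845 RefSeq transcripts in 8 libraries were deposited by the authors, with 3 comparison tables that hold, per the file headers, log2 fold changes, mean log2 CPM, the F score of a test, its p-value and its false discovery rate; 1 fold-change cell of the 2 h table could not be read. The submitters' processing notes list Trimmomatic 0.40. Aligner, counting program, use of strand, genome build and annotation were not given in the sources used here, and the kit is directional, per the labels. Of values from 1 to 20 counts 77.8% were even, so counts may not be independent fragments.

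Fits used edgeR 4.0.16 (R 4.3.3). filterByExpr (minimum count 10, minimum total 15) left 34483 transcripts of 20137 symbols, scaled by TMM. The robust quasi-likelihood model had a mean for each of 4 groups over 8 libraries (4 residual degrees of freedom, biological coefficient of variation 0.353, prior degrees of freedom 10.6). Contrasts were two-sided, with Benjamini-Hochberg adjustment over all 34483 transcripts. The error after a log2 fold change is its standard error, its size over the root of F. DESeq2 1.42.0 and limma 3.58.1 (voom) were alternatives, and the fit was tested on simulated data. Log2 CPM carry a prior count of 2.

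Members, gene lists and tests were chosen with earlier results of these data known. Members named with a fold change were taken from the 8 with the smallest p for each tunicamycin contrast and the 5 for each other one. LOC101244265, LOC101244823 and LOC101248647 at 6 h met that rule but are not described above. The same holds for LOC101248138, lower at 6 h than at 2 h in tunicamycin leaves (log2 -4.04 ± 1.31, adjusted p = 0.239 in edgeR). Some members described above also met the rule in comparisons whose values are not given there. In control leaves, 6 h against 2 h, LOC101246961 was at log2 2.30 ± 0.89 and LOC543632 at -0.74 ± 0.36 (adjusted p = 0.879 and 0.999 in edgeR). In tunicamycin leaves LOC101259064 was at 1.54 ± 0.57 for the same times (adjusted p = 0.315 in edgeR). Members named with levels are the 10 with the highest mean CPM and the highest of each role; LOC101262903, LAPA1, TD2 and the named genes of the upstream lists were otherwise picked after their values were seen. No pairing of the libraries by replicate number is stated in the labels used here. Across transcripts, deviations of libraries with the same number correlated between -0.306 and 0.161. Libraries with the same number differed in depth between the arms, so these values cannot show whether libraries were paired.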

Additional observations from a re-analysis of the deposited data

How the results depend on the processing

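Members called at an adjusted p under 0.05, 0 in every main comparison, became 6 at 2 h, 4 for tunicamycin 6 h against 2 h, 2 for control 6 h against 2 h, 1 for the difference of effects, 5 for the tunicamycin average and 6 for the time average without a filter on low counts, where far more transcripts were tested. With depth as a term they were 1 at 2 h and 1 for tunicamycin 6 h against 2 h. With DESeq2 they were 3 at 2 h, 1 for tunicamycin 6 h against 2 h and 3 for the tunicamycin average, with limma-voom 1 for that average, and with only the compared libraries 1 at 2 h. Calls over all transcripts are given below only as ranges over the alternatives. No member count of a single alternative, here or in the sentences that follow, is therefore read as more than the transcripts at large. Leaving out 1 library gave 0 to 1 for tunicamycin 6 h against 2 h (1 without tunicamycin 2 h replicate 2) and 0 to 1 for control 6 h against 2 h (1 without control 6 h replicate 1). It gave 0 to 2 for the tunicamycin average (1 without control 2 h replicate 1 and 2 without control 6 h replicate 2). For the time average it gave 0 to 2 (2 when tunicamycin 2 h replicate 1 was left out, and 1 each for control 6 h replicate 1 and tunicamycin 6 h replicate 1). At 6 h the count was 0 in all 17 alternatives. Over the omissions of 1 library, log2 fold changes at 2 h ran from -1.11 to 2.95 for LOC101246961 and from -6.16 to 9.36 for LOC543954. The averages ran from -2.85 to 4.92 for LOC543954 and from -1.66 to 4.85 for LOC101266528. The negative values came without tunicamycin 2 h replicate 1, or for LOC101266528 without tunicamycin 6 h replicate 1. For LOC543954 and LOC101266528 these omissions left a group at 0 counts, so the fitted values depend on the prior count and bound nothing. Beyond the libraries named, the cause was not tested.

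Over all transcripts, 16 calls at 2 h ran from 0 to 679 over the alternatives, 111 at 6 h from 0 to 597, 208 for tunicamycin 6 h against 2 h from 65 to 1229, 93 for control 6 h against 2 h from 23 to 371, 0 for the difference from 0 to 93, 400 for the tunicamycin average from 63 to 1175 and 490 for the time average from 211 to 1623. A replicate block left 0 members called in all 7 comparisons and 3 transcripts called at 2 h and 72 at 6 h. A crossed pairing at 6 h, added after seeing the data, was the same fit as the one with depth as a term. It called 161 transcripts and 0 members at 6 h, and pairing and depth cannot be told apart in it. Within each arm depth was confounded with replicate number. The shallowest library held 4689769 counts, where 1 count was worth 0.203 CPM.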

Other observations

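Of 25445 transcripts outside the members averaging log2 CPM 1 or more, those whose log2 CPM followed LOC101248784 most closely over the 8 libraries were LOC101257038 (uncharacterized, Pearson's r = 0.988), LOC101264862 (annexin D4, 0.977), LOC101248071 (B2 protein, 0.971), LOC101267838 (uncharacterized, 0.969) and LOC101266085 (uncharacterized, 0.956). These values describe 8 libraries that share the groups, times and depths given above.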
